A study of Mus musculus with 18 samples.

Results

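TRIM proteins carry a RING finger, a B-box and a coiled coil, and many of them are ubiquitin ligases that act against viruses or tune innate immune signalling. Several of their genes are switched on by type I interferon, in T cells as in other cells. In the mouse a run of related TRIM genes on chromosome 7 holds the relatives of primate TRIM5, a factor that recognises incoming retroviral capsids. Here 8 TRIM genes were described in naive CD4+ T cells in which the T cell receptor adaptor LAT had been deleted or mutated: Trim12a, Trim12c, Trim30a, Trim30d, Trim34a, Trim6, Trim21 and Trim25. They were taken by name, through the RefSeq accession of each array probe, and all 17 of their probes were used (2 for Trim12a, 1 for Trim12c, 2 for Trim30a, 1 for Trim30d, 3 for Trim34a, 5 for Trim6, 1 for Trim21, 2 for Trim25) out of 41174 probes and 17178 named genes on the array. The set was chosen by a measured value, the low Trim12a signal in the 4-week Y136F arrays against WT, with the other genes added as its relatives or as interferon-linked. All values that rest on the 4-week Y136F arrays are therefore given as a description, with no test.

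Naive (CD44low) CD4+ T cells were sorted from the spleens of C57BL/6 mice given tamoxifen over 1 week or 4 weeks, and RNA of 1 mouse was hybridised to each of 18 single-colour Agilent arrays, 3 mice per group. By the sample titles, WT mice were ERCre- LAT f/-, LAT KO mice were ERCre+ LAT f/-, and Y136F mice were ERCre+ LAT f/m. All mice had thus been given tamoxifen, the WT and LAT KO mice also carried a null Lat allele from the start, and ERCre, a tamoxifen-activated recombinase, left the mutant allele as the remaining one in Y136F mice. The Y136F change removes the tyrosine of LAT that binds phospholipase C gamma. The series text instead gives Cre to all groups and pairs the Y136F allele with a null allele, so that Cre and LAT genotype cannot be told apart if the titles hold. Y136F mice were labelled female throughout, the WT and LAT KO mice of 4 weeks were male, and those of 1 week were 2 females and 1 male in each group. Nothing in the labels says whether mice of a group shared a litter or a sort, and the p-values below measure the spread between these mice.

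Values are log2 processed signals minus the 75th percentile of the array, called scaled log2 signal, and are compared between arrays for 1 probe at a time, never between probes. The 75th percentile lay between 1120 and 1900 intensity units and 84.2% to 97.9% of spots were well above background; 2 arrays of a group correlated with r between 0.951 and 0.992. Sex-linked genes went against the labelled sex on 2 LAT KO arrays, replicate 1 at 1 week and replicate 2 at 4 weeks. The former was labelled female and read -0.23 for the Y-linked gene Ddx3y, and the latter was labelled male and read -8.92. Of the comparisons of LAT KO with WT, only that over both times keeps its mean difference if these 2 arrays are exchanged. This holds for probes with values on all LAT KO arrays. The SE and p can still change, since the spread is taken within each group. LAT KO replicate 3 at 1 week had 7888 spots marked as outliers against 187 to 952 on the others. On this array and on WT replicate 3 at 1 week, both labelled male, the female marker Xist read -3.74 and -3.98. The other arrays with high Y-linked signals read -9.3 to -7.03 for it, and the cause was not tested. The 6 measured CD4 T cell marker genes were well above background on all arrays, and so were the 7 B cell, 6 myeloid, 4 plasmacytoid dendritic cell and 4 erythroid markers, and 2 of 3 NK cell markers. Fewer cells of a type and less RNA per cell cannot be told apart in such bulk samples. Lat itself read 2.75, 3.47 and 3.37 in WT mice at 1 week, 2.32, 3.19 (a spot marked as an outlier) and 2.73 in LAT KO, and 4.26, 4.17 and 4.32 in Y136F. At 4 weeks it read 3.29, 3.62 and 3.85 in WT, 3.16, 2.62 and 2.34 in LAT KO, and 4.43, 3.86 and 3.93 in Y136F. LAT KO arrays thus lay below WT arrays at 4 weeks and overlapped them at 1 week when the marked spot was kept; the sources used here do not say where the probe lies relative to the deleted part.

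The promoters are shown first because 6 of the 8 genes share a short sequence there. In the RefSeq promoters of build GRCm38.p6 (250 bases before to 50 after the start) the core of the interferon-stimulated response element, searched as GAAANNGAAA and, on the other strand, TTTCNNTTTC, was found for Trim12a, Trim12c, Trim30a, Trim30d, Trim34a and Trim21, and in 3.44% of all 32851 promoters. Counted as promoters, it was in 7 of the 9 of these genes, since both Trim30a promoters hold it; the first is shown. It was not found in these windows of Trim6 and Trim25. The genes were chosen as relatives or as interferon-linked and include close copies, so nothing is read from the contrast with all promoters. The gamma-activated site, searched as TTCNNNGAA, which reads the same on both strands, was in none of the 9 promoters of the 8 genes (Trim30a has 2) and in 8.3% of all promoters. The stretches below run 5′ to 3′ on the strand of the gene, 25 bases to either side of the core, with the core in capitals.
Trim12a, chr7:104315451-104315510, minus strand: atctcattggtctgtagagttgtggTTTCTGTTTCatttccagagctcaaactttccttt
Trim12c, chr7:104353344-104353403, minus strand: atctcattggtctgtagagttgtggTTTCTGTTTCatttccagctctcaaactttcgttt
Trim30a, chr7:104465195-104465254, minus strand: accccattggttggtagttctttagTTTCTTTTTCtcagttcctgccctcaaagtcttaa
Trim30d, chr7:104507856-104507915, minus strand: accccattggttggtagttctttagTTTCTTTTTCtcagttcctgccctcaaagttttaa
Trim34a, chr7:104244442-104244501, plus strand: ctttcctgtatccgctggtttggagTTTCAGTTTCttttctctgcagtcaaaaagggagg
Trim21, chr7:102565435-102565494, minus strand: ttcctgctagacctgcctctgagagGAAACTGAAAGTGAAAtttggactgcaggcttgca

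In Trim21 the capitals cover 2 overlapping matches. Counted from the RefSeq start as base 1, with the base before it as -1, the core begins at 11 in Trim12a and Trim34a, at -29 in Trim12c, at -36 in Trim30a, at -41 in Trim30d and at 14 and 20 in Trim21. The promoters of Trim12a and Trim12c matched at 247 of 260 aligned bases (95%), and those of Trim30a and Trim30d at 277 of 295 (93.9%), against 165 of 248 (66.5%) for Trim12a and Trim30a. If the transcripts are as alike as the promoters, a probe of one gene could bind RNA of its copy. Neither transcript nor probe sequences were compared here. Signals of Trim12a and Trim12c, and of Trim30a and Trim30d, are therefore uncertain as measures of the single gene. A match is a description of the letters and says nothing on what binds there.

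Trim12a, a TRIM5 relative, was bright on 15 arrays and dim on the 3 arrays of Y136F mice at 4 weeks. Its first probe read 3.25, 3.20 and 3.14 in WT mice at 1 week, 3.08, 3.70 and 3.15 in LAT KO mice and 3.78, 3.68 and 3.53 in Y136F mice. At 4 weeks it read 2.99, 2.69 and 2.64 in WT and 3.17, 3.59 and 3.03 in LAT KO, and -2.88, -3.03 and -3.93 in Y136F. No 4-week Y136F array came near any other array: the mean of -3.28 ± 0.57 (SD, n = 3) differed from the WT mean of 2.77 ± 0.19 by -6.05 on the log2 scale, or 66.5-fold lower, and the probe was still well above background on all 3. At 1 week the same genotype had the highest mean of the 6 groups, 3.66 ± 0.13 (SD, n = 3), followed by LAT KO at 1 week (3.31 ± 0.34), LAT KO at 4 weeks (3.27 ± 0.29), WT at 1 week (3.20 ± 0.06) and WT at 4 weeks (2.77 ± 0.19). Neighbouring groups in that order overlapped, except WT at 1 week against WT at 4 weeks and WT against Y136F at 4 weeks.

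The second probe of Trim12a had the same order of groups but a smaller drop. It read 1.72, 1.63 and 1.63 in WT, 1.90, 2.31 and 1.75 in LAT KO and 2.26, 2.59 and 2.29 in Y136F mice at 1 week. At 4 weeks it read 1.68, 1.51 and 1.16 in WT, 1.81, 2.21 and 1.80 in LAT KO, and 0.28, -0.17 and -0.03 in Y136F. The 3 Y136F arrays of 4 weeks were again the lowest of the 18, with a difference of -1.42 from WT on the log2 scale (2.68-fold lower). The probes of Trim12a disagree on the size of the drop, 66.5-fold against 2.68-fold, and agree on the arrays that show it. Their values correlated with r = 0.94 over the 18 arrays, and with r = 0.92 over the 15 arrays without Y136F at 4 weeks.

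Trim12c, a close copy of Trim12a that in the mouse has been tied to TRAF6 and interferon induction, was also lowest on those 3 arrays. It read -0.74, -1.17 and -1.12 in WT, -0.99, -0.54 and -1 in LAT KO and -0.50, -0.44 and -0.76 in Y136F at 1 week. At 4 weeks it read -1.14, -1.33 and -1.64 in WT, -0.95, -0.52 and -0.95 in LAT KO, and -2.35, -1.97 and -1.95 in Y136F. The difference from WT was -0.73 on the log2 scale with no overlap, and r with the first Trim12a probe was 0.87 over 18 arrays. The arrays share slides, and the 3 WT and 3 Y136F arrays of 4 weeks stood on the same 3 slides: within a slide the difference was between -6.57 and -5.73 for the first Trim12a probe, between -1.68 and -1.18 for the second, and between -1.22 and -0.32 for Trim12c. All 3 Y136F mice of 4 weeks were labelled female and the WT mice male, so that sex and genotype cannot be told apart there. The 2 WT and 3 Y136F mice labelled female at 1 week read 3.20 to 3.78 on the first Trim12a probe. Those mice differ in time from the low arrays. LAT KO replicate 2 of 4 weeks, labelled male but with sex-linked genes against that label, read 3.59 on the same probe. Whether its time label holds, and the part of sex in the drop, were not tested.

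**Figure D1:**
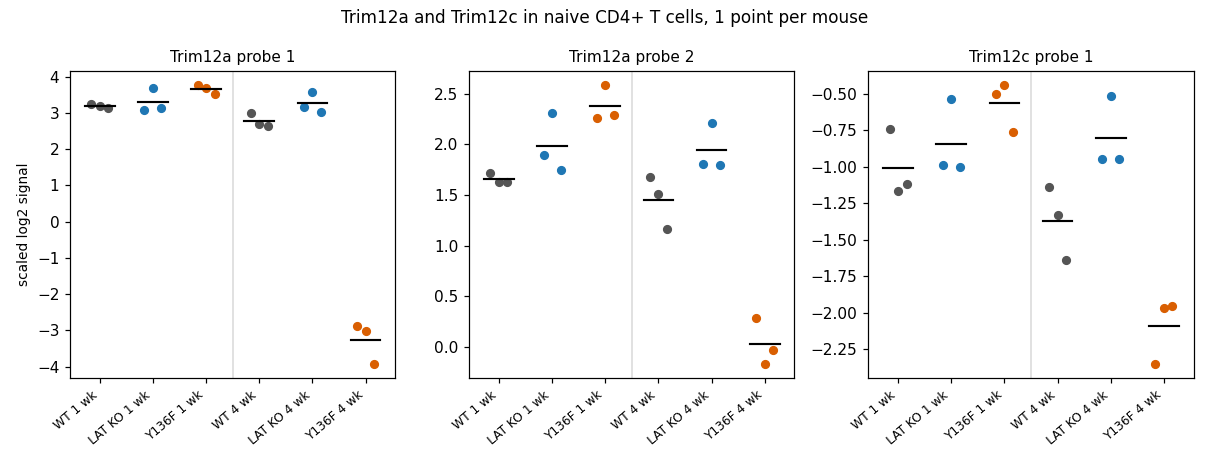
Scaled log2 signal (vertical axis, a scale of its own in each panel) of both Trim12a probes and the Trim12c probe in the 6 groups; each point is 1 mouse and each bar the mean of 3. The 3 Y136F mice of 4 weeks lie below all other mice in every panel, at -3.93 to -2.88 on the first Trim12a probe, where the other 15 mice lie between 2.64 and 3.78.

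Of 23698 probes of named autosomal genes, the first Trim12a probe had the lowest difference between Y136F and WT at 4 weeks, and the second ranked 146 from the bottom. Next after it came Drd1, a dopamine receptor gene, at -3.57, and Mapk8ip1, a scaffold of JNK signalling, at -3.36. Among all 39878 probes it ranked 7, behind Y-linked and unnamed probes. One unnamed probe followed it on all arrays (r = 0.984, n = 18): it read -0.04, -0.12 and -0.56 in WT at 4 weeks and -3.04, -2.87 and -4.18 in Y136F, a difference of -3.12 on the log2 scale. The named genes most like it in Pearson correlation over the 18 arrays were Atp1b1 (0.957), Acvrl1 (0.956), Actn1 (0.954), Dctn5 (0.95) and Dapl1 (0.946). These also were lower in Y136F than in WT at 4 weeks, by differences of -1.40, -1.40, -1.20, -1.02 and -2.93. The arrays share RNA amplification and slides, and such a correlation largely follows the 3 low arrays, so it is a description only.

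The same 3 arrays were low for 2 marker genes of naive T cells. Ccr7, a lymph node homing receptor, read 1.76, 1.88 and 1.88 in Y136F mice at 4 weeks and 3.28, 3.10 and 3.23 in WT mice of that time. Lef1, a transcription factor of naive T cells, read 2.90, 2.83 and 3.17 in Y136F and 3.74, 3.50 and 3.47 in WT. Neither gene overlapped between Y136F at 4 weeks and any other group. Other cell types were followed by the mean of their marker genes, each gene centred on its mean over all arrays. NK cell markers (3 genes) were at 0.33 to 0.49 on them against 0.09 to 0.28 in WT, while the ranges of B cell (-0.18 to 0.66 against 0.18 to 0.54), myeloid (-0.23 to 0.67 against 0.10 to 0.38), plasmacytoid dendritic cell (-0.22 to 0.20 against 0.10 to 0.20) and erythroid markers (0.01 to 0.68 against -0.28 to 0.20) overlapped. The CD8 marker gene measured was at -0.11 to 0.06 against -0.36 to -0.14, and the CD4 T cell markers overlapped at 0.08 to 0.18 against -0.05 to 0.22. The part of these cells in the drop of Trim12a was not tested.

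The genes around Trim12a were compared at 4 weeks as well. In the RefSeq gene order the cluster runs Trim6, Trim34a, Trim5, Trim12a, Trim34b, Trim12c, Trim30b, Trim30c, Trim30a and Trim30d, over 18 table entries; Trim21 lies 130 genes before Trim6 and Lat 515 genes after Trim30d. Trim25 is on chromosome 11. Trim5, Trim34b and Trim30c had no probe named here. Around the cluster and as far as Lat, 414 probes of 322 other genes were measured, of which 17 (4.11%) differed by 2-fold or more between Y136F and WT at 4 weeks with no overlap of arrays, 12 lower and 5 higher. Over all probes the share was 4.22%, with 777 lower and 906 higher. The median difference was -0.33 in that window and -0.53 for the 28 probes within 25 genes of the cluster, against -0.16 for all probes. At 1 week the count in the window was 1 of 414 (0.242%) against 1.51%. Within 25 genes of the cluster, 2 of 28 probes passed, both lower. One was Trim30b, 7 genes from Trim12a, which read -4.93, -4.35 and -4.98 in WT and -6.37, -5.95 and -7.07 in Y136F at 4 weeks, on 2 of those last 3 arrays not well above background. Among the 17 probes of the window, the largest differences were Olfr476 (-2.11), Hbb-bt (2.08), Tmc7 (-1.89), Trim30b (-1.71) and Olfr545 (-1.35), all smaller in size than that of the first Trim12a probe. In LAT KO against WT at 4 weeks the same 5 differed by -2.44, 0.89, -0.95, -0.31 and -0.96. Tmc7 and Olfr545 had low signals too, with means of -5.05 and -3.99 in WT and -6.93 and -5.35 in Y136F.

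**Figure D2:**
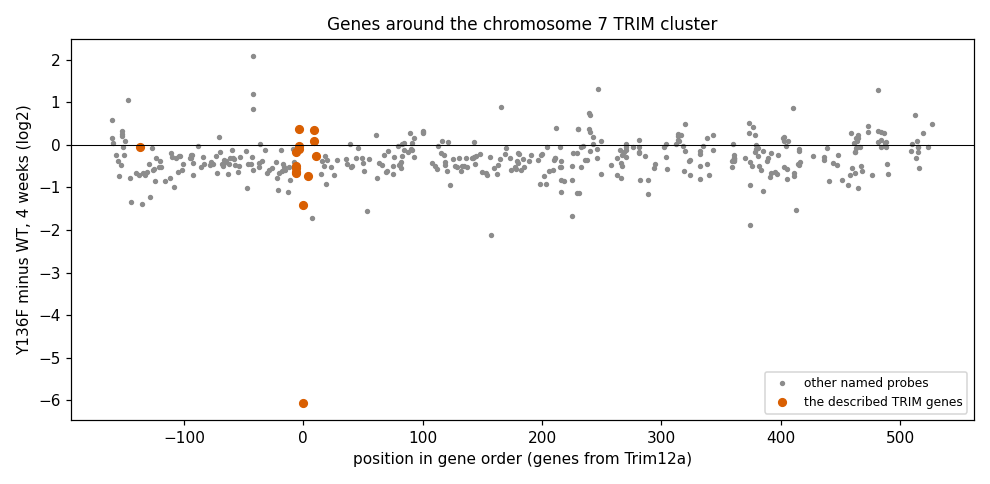
Difference of mean scaled log2 signal between Y136F and WT at 4 weeks (vertical axis) for probes of named genes around the TRIM cluster, ordered by gene along chromosome 7 from Trim12a (horizontal axis); orange points are probes of the described TRIM genes and grey points the 414 probes of other genes. The first Trim12a probe at -6.05 is the lowest. Grey probes with a difference of 2-fold or more and no overlap of arrays run from -2.11 to 2.08.

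The other members showed no drop of that size. In Y136F against WT at 4 weeks the 17 probes had a median difference of -0.17 against -0.16 for all probes; on 5 every Y136F array lay below every WT array (16.6% of all probes) and on 1 above (9.95%). The 5 were both Trim12a probes, Trim12c and Trim6 probes 2 and 5, and the 1 was Trim34a probe 1. As the members were chosen with this contrast known, nothing is read from these shares.

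Loss of LAT went with somewhat higher signals of the interferon-linked TRIM genes, without any probe passing the threshold. In LAT KO against WT all 12 probes outside Trim6 had positive differences at 1 week (0.11 to 0.69), at 4 weeks (0.36 to 1.08) and over both times (0.30 to 0.66), under every scaling tried. With Trim6 included, 15, 12 and 12 of the 17 were positive. Probes of 1 gene or of close copies are not independent, with r up to 0.98 for Trim34a probes 2 and 3, so such counts are a description. At 1 week only 1 slide held both groups, with 1 array of each, so slide and genotype cannot be fully told apart. On that slide Trim30a probe 2 (-0.46), Trim21 (-0.23) and Trim34a probe 1 (-0.06) were lower in LAT KO. The other probes outside Trim6 differed by 0.01 to 0.37 there. At 4 weeks 2 slides held both groups, and the 12 probes outside Trim6 differed by 0.01 to 1.17 within them. With limma and Benjamini-Hochberg adjustment over all probes, 0 of the 17 were called at either time or over both, where 0.015%, 0.0978% and 0.324% of all probes were. At an unadjusted p under 0.05 there were 2 higher at 1 week (2.87% of all probes), 10 higher at 4 weeks (11.3%) and 11 higher over both times (7.35%), and 0 lower. Here and below, the shares of all probes at an unadjusted p count both directions together. Every LAT KO array lay above every WT array for 3 probes at 1 week (1.21% of all probes) and 11 at 4 weeks (10%), and below every WT array for 2 at 4 weeks, Trim6 probes 3 and 5 (13.7%). The median difference of the 17 was 0.28, 0.49 and 0.41, against -0.04, -0.14 and -0.08 for all probes; the scaling sets such shifts of all probes, which in the other comparisons lay between -0.16 and 0.17 and were between -0.08 and 0.08 under quantile normalization. Over both times 12 probes were called when arrays were weighted by their agreement, 10 higher and Trim6 probes 3 and 4 lower, a setting that called 11.1% of all probes. When both LAT KO arrays of contradicted sex were left out, 1 was called (Trim25 probe 1), with 0.275% of all probes. Myeloid markers were at -0.23 to 0.09 in LAT KO and 0.10 to 0.38 in WT at 4 weeks, the CD8 marker gene at 0.01 to 0.27 and -0.36 to -0.14, and erythroid markers at 1 week at -0.32 to -0.20 and -0.16 to 0.45. The B cell, NK cell, plasmacytoid dendritic cell and CD4 T cell lists overlapped at both times, and the part of these cells was not tested.

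Trim30a, described in the mouse as a brake on Toll-like receptor signalling to NF-kB, had the lowest adjusted p over both times. Its first probe read 2.33, 2.38 and 2.34 in WT and 2.77, 3.32 and 2.64 in LAT KO at 1 week, and 2.53, 1.95 and 1.74 in WT and 2.90, 3.02 and 2.57 in LAT KO at 4 weeks. LAT KO lay above WT at each time with no overlap, by 0.56 ± 0.21 (SE, n = 3 per group) on the log2 scale at 1 week and 0.76 ± 0.21 at 4 weeks. Over both times the difference was 0.66 ± 0.15 (limma adjusted p = 0.0873). The adjusted p was 0.0442 under quantile normalization and 0.0344 in the authors' processed table, so the call depends on the setting. The second Trim30a probe had the same direction, 0.57 ± 0.27 (adjusted p = 0.67), with overlapping arrays at both times.

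Trim30d, the close copy of Trim30a, read 2.60, 2.84 and 2.85 in WT and 3.27, 3.51 and 3.23 in LAT KO at 1 week. The 4-week values were 3.11, 2.78 and 2.45 in WT and 3.43, 3.48 and 3.17 in LAT KO. The LAT KO arrays were above the WT arrays both times, by 0.57 ± 0.19 and 0.58 ± 0.19, and by 0.57 ± 0.14 over both (limma adjusted p = 0.11). Over the 18 arrays its r was 0.93 with Trim30a probe 1 and 0.52 with Trim30a probe 2.

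Trim34a, an interferon-induced relative whose human counterpart acts with TRIM5 against retroviral capsids, had 3 probes, each with a positive difference from WT in LAT KO at both times. The first read 3.70, 3.81 and 3.74 in WT and 4.14, 4.53 and 3.68 in LAT KO at 1 week, with overlap. The 4-week values were 3.55, 3.44 and 3.22 in WT and 4.07, 4.35 and 3.93 in LAT KO, with none. The differences of the 3 probes at 4 weeks were 0.72 ± 0.18, 0.82 ± 0.25 and 0.90 ± 0.23 (SE, n = 3 per group; limma adjusted p = 0.173, 0.262 and 0.184). At 1 week they were 0.37, 0.28 and 0.34.

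Trim21, the cytosolic receptor for antibody-coated virus, had small differences. It read 0.12, 0.37 and 0.63 in WT and 1.03, 0.82 and 0.41 in LAT KO at 1 week, and 0.50, 0.23 and 0.03 in WT and 0.52, 0.63 and 0.71 in LAT KO at 4 weeks. The 4-week arrays did not overlap but were close, and the difference over both times was 0.37 ± 0.15 (limma adjusted p = 0.596, 95% interval 0.05 to 0.69 before adjustment).

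Trim25, which ubiquitinates the RNA sensor RIG-I, read 2.76, 2.76 and 2.87 in WT and 2.65, 3.43 and 3.07 in LAT KO at 1 week on its first probe. The 4-week values were 2.21, 2.20 and 1.87 in WT and 2.61, 3.36 and 2.82 in LAT KO. The difference was 0.26 ± 0.19 at 1 week and 0.84 ± 0.19 at 4 weeks (limma adjusted p = 1 and 0.135), and 1.08 ± 0.27 on the second probe at 4 weeks (0.157). Between the WT groups the first probe differed by -0.70 ± 0.19, 4 weeks minus 1 week (limma adjusted p = 0.125).

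Trim6, for which synthesis of free ubiquitin chains in interferon signalling is described in human cells, did not join the others. Its first probe read -2.16, -1.04 and -1.51 in WT and -1.90, -1.32 and -0.61 in LAT KO at 1 week, and -0.99, -1.16 and -0.49 in WT and -1.43, -1.64 and -0.80 in LAT KO at 4 weeks. The 5 probes differed by -0.99 to -0.23 between LAT KO and WT at 4 weeks and by -0.87 to 0.30 at 1 week, and 0 had an unadjusted p under 0.05. Probes 4 and 5 were well above background on 15 and 12 of 18 arrays, and probes 2, 4 and 5 each lacked LAT KO replicate 3 of 1 week, a spot marked as an outlier, so that 2 arrays stand for that group. The sign of single Trim6 probes changed with the scaling in 7 of the 11 comparisons computed.

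**Figure D3:**
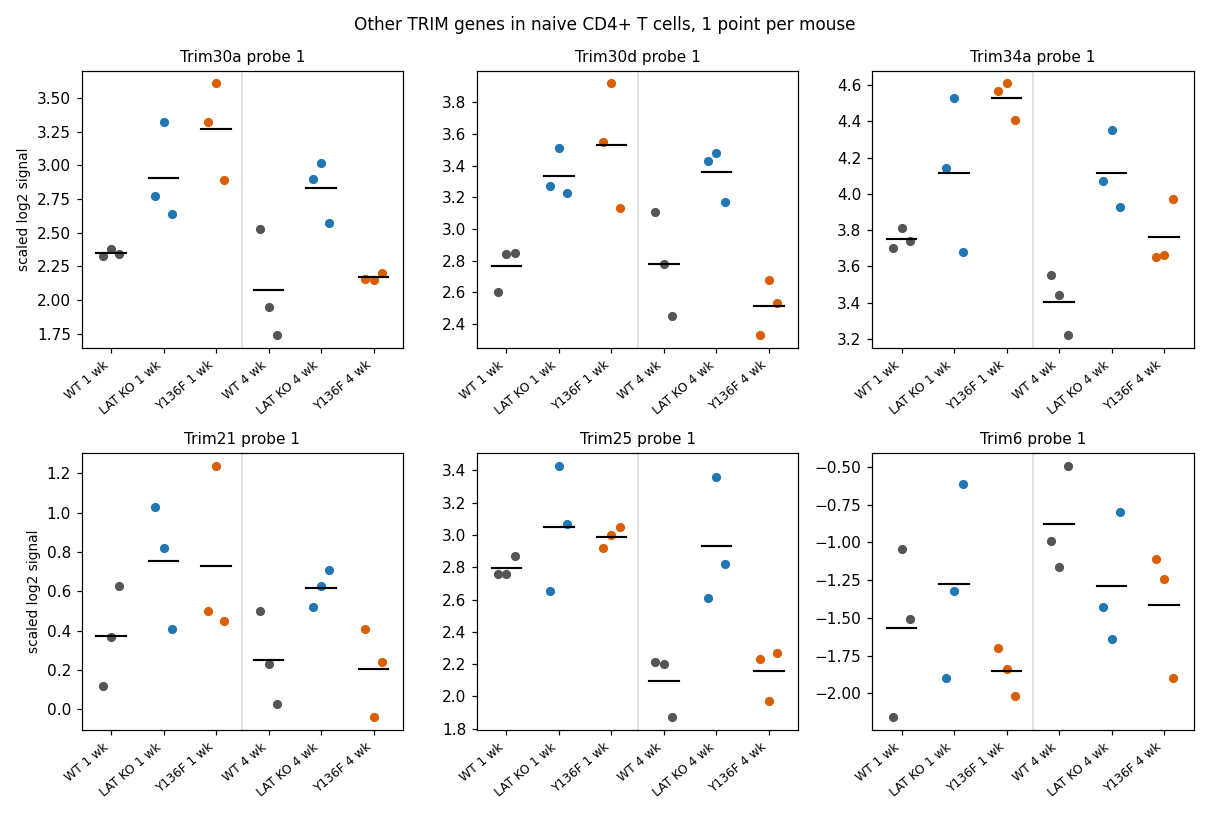
Scaled log2 signal (vertical axis, a scale of its own in each panel) of the first probe of Trim30a, Trim30d, Trim34a, Trim21, Trim25 and Trim6 in the 6 groups; each point is 1 mouse and each bar the mean of 3. For Trim30a and Trim30d all LAT KO mice lie above the WT mice of the same time, and no panel shows a group as far from the rest as the 4-week Y136F mice are for Trim12a.

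The effect of LAT loss was compared between times and with that of Y136F. Its change from 1 to 4 weeks had 0 calls (0% of all probes) and 2 probes at an unadjusted p under 0.05 (5.29%), both of Trim25: 0.58 ± 0.27 and 0.85 ± 0.37, limma adjusted p = 0.818 for each. Over the other settings these 2 differences ran from 0.12 to 0.77 and from 0.22 to 1.05. Such a change depends on which time each LAT KO array belongs to. The 2 LAT KO arrays of contradicted sex carry different time labels, and whether they were exchanged was not tested. At 1 week the Y136F mice also had higher signals than WT for all 12 probes outside Trim6, by 0.19 to 0.92, with 0 calls (0.0125%), 8 higher at an unadjusted p under 0.05 (6.44%) and 9 with every Y136F array above every WT array (4.95%). For 1, Trim6 probe 3, every Y136F array lay below every WT array (6.38%). The choice of genes did not use these values, though a rise of interferon-response genes in the LAT mutants was known. Trim30a probe 1 read 3.32, 3.61 and 2.89 in Y136F mice, 0.92 ± 0.21 above WT (limma adjusted p = 0.176); Trim30d read 3.55, 3.92 and 3.13, a difference of 0.77 ± 0.19 (0.218), and Trim34a probe 1 read 4.57, 4.61 and 4.41, a difference of 0.78 ± 0.18 (0.18). Trim12a differed by 0.47 ± 0.23 (0.785) and 0.72 ± 0.18 (0.197). With female mice alone, 2 WT against 3 Y136F, the count at an unadjusted p under 0.05 was 9 of 16 probes (3.88% of all probes in that fit) and the count of calls again 0 (0%). The comparison shares its WT arrays with that of LAT KO.

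LAT KO against Y136F at 1 week, with no shared array, had 0 calls (0% of all probes) and 2 probes lower in LAT KO at an unadjusted p under 0.05 (6.04%), Trim12a probe 2 at -0.40 ± 0.18 and Trim34a probe 1 at -0.41 ± 0.18 (limma adjusted p = 0.816 for both). Their 95% intervals before adjustment ran from -0.77 to -0.02 and from -0.80 to -0.03. At 4 weeks, as a description, LAT KO lay above Y136F on all 12 probes outside Trim6, by 0.12 to 6.55. Between the times, WT had 0 calls (0% of all probes) and 5 probes at an unadjusted p under 0.05 (19.1%), 4 of them lower at 4 weeks (Trim25 probes 1 and 2, Trim34a probes 2 and 3, from -0.86 to -0.70) and 1 higher (Trim6 probe 2, 0.46). Over all 17 probes 10 differences between the WT groups were below 0 and 7 above, the 7 being those of Trim30d (0.01), Trim30a probe 2 (0.21) and the 5 Trim6 probes. In Y136F mice the 12 probes outside Trim6 were all lower at 4 weeks than at 1 week, by differences of -6.95 to -0.31, so that Trim30a probe 1 stood at 2.16, 2.15 and 2.20 and Trim30d at 2.33, 2.68 and 2.53.

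**Figure D4:**
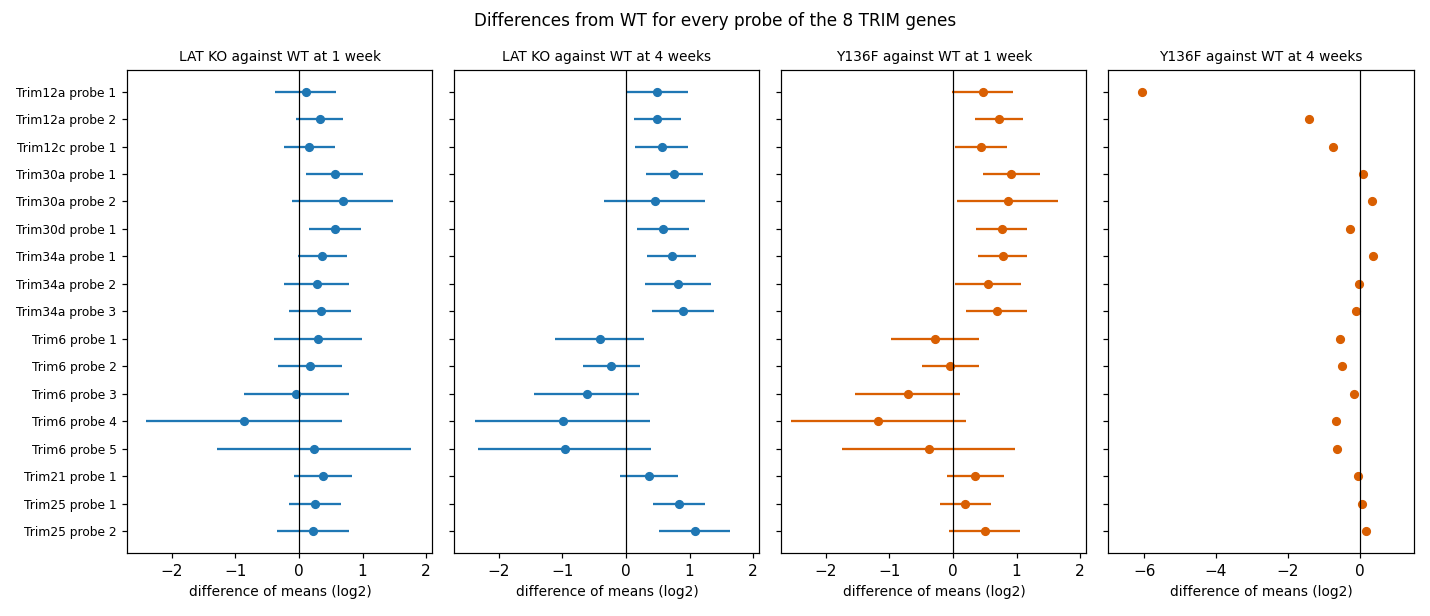
Difference of mean scaled log2 signal from WT (horizontal axis) for all 17 probes, with 95% intervals before adjustment as lines where a test was made; the panel of Y136F at 4 weeks has a wider axis and no intervals, since those arrays chose the genes. The 12 probes outside Trim6 lie above 0 in the first 3 panels, and the first Trim12a probe lies at -6.05 in the last.

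The genes most like Trim30a probe 1 over the 18 arrays were Slfn8 (r = 0.971), Tlr7 (0.963), Ifit2 (0.958), Phf11a (0.954) and Slfn9 (0.954), a description that shares arrays and labelling. Within the TRIM genes its r was 0.93 with Trim30d, 0.93 with Trim34a probe 1, 0.76 with Trim21, 0.78 with Trim25 probe 1 and -0.42 with Trim6 probe 1. With Trim12a probe 1 it was 0.49 over 18 arrays and 0.90 over the 15 arrays without Y136F at 4 weeks. For Trim30a probe 2 and Trim12a probe 1 the values were 0.01 and 0.37.

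Of 25 partner and pathway genes measured, which encode substrates, ubiquitin enzymes and interferon signalling components, 4 rose in LAT KO over both times, where 0.324% of all probes were called. They were Irf7, a transcription factor of interferon induction, by 1.54 ± 0.21 (SE; limma adjusted p = 0.00271), Stat2, part of the complex that binds the response element, by 1.1 ± 0.16 (0.00482), Usp18, which removes ISG15, by 0.96 ± 0.17 (0.0178), and the ubiquitin-like modifier Isg15 by 1.15 ± 0.24 (0.0465). The list was chosen with earlier results of these data known, among them a rise of interferon-response genes in the LAT mutants. Calls of such genes are therefore no independent result. At 4 weeks 2 rose, Irf7 by 1.82 ± 0.30 (0.0202) and Stat2 by 1.35 ± 0.23 (0.0309), where 0.0978% of all probes were called. At 1 week 0 were called in LAT KO (0.015% of all probes), with 6 higher and 2 lower (Jak1 at -0.29 and Traf6 at -0.34) at an unadjusted p under 0.05 (2.87%). In Y136F 0 were called (0.0125%), with 9 higher at an unadjusted p under 0.05 (6.44%). Their median difference was 0.21 over both times, against -0.08 for all probes, and Ddx58, which encodes RIG-I, differed by -0.59 ± 0.19 between the WT groups (adjusted p = 0.162). Of 43 other measured TRIM genes 0 were called over both times (0.324% of all probes) and 8 had an unadjusted p under 0.05 (7.35%), with a median of -0.04. The smallest p among them belonged to Trim26 (0.40 ± 0.12, adjusted p = 0.256), Trim56 (0.37 ± 0.13, 0.496) and Trim44 (0.31 ± 0.12, 0.535). At 4 weeks 0 of the 43 were called and 10 had an unadjusted p under 0.05 (11.3% of all probes), with a median of -0.15. The same 3 genes then differed by 0.79 ± 0.16, 0.78 ± 0.19 and 0.66 ± 0.16 (limma adjusted p = 0.0772, 0.14 and 0.161). The lowest adjusted p of the 17 TRIM probes at 4 weeks was 0.135, so a rise of this size was not particular to the 8 genes.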

How the data were processed

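Per the file headers, the authors extracted the spot intensity of each array with Agilent Feature Extraction 10.5.1.1; the processed signal used here is a deposited intensity, background-corrected on a linear scale, and the submitters' processing notes name Feature Extraction 10.5 and limma. The array design refers to mouse build mm9. The authors' deposited series matrix holds values on a log2 scale with column medians from 8.558 to 8.57; each column ranked the probes like the median signal of its own array, and its normalization is not given in the sources used here. It served as an alternative only.

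From the processed signal, log2 was taken, the 75th percentile over the 43379 non-control spots was subtracted, spots marked as outliers were left out and spots of 1 probe were averaged. Accessions were matched to a RefSeq gene table of GRCm38.p6, which named 24844 of 41174 probes. Probes well above background on at least 3 arrays with at least 8 values were kept (39911, with all 17 of the TRIM genes). With limma 3.58.1 (R 4.3.3; statmod 1.5.0), 1 mean per group was fitted over all 18 arrays, with an intensity trend and 12 residual degrees of freedom for most probes. P-values are two-sided and were adjusted by Benjamini-Hochberg over every probe tested in that comparison, and 0.05 was the limit for a call. The number of arrays limits the precision. The fit was also tested on simulated data.

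The TRIM genes, the partner list and the marker lists were chosen with earlier results of these data known. Named were all probes of the 8 genes, the called and the 3 lowest-p partner genes, the 3 lowest-p other TRIM genes, up to 5 genes most like Trim12a and Trim30a and the 5 largest neighbours; Ddx58, Drd1 and Mapk8ip1 were added after their values were seen. Alternatives were normexp (offset 50) with quantile normalization, quantile normalization alone, the series matrix, other probe filters, slide, sex or replicate number as a term, array weights, fewer groups in the fit and each array left out. Normexp used the median spot signal, since the files at hand hold no mean. Leaving out both LAT KO arrays of contradicted sex, and females alone, were chosen after seeing the data. The naive T cell markers are given as 2 genes; the list as a whole is not reported here.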

Additional observations from a re-analysis of the deposited data

Results flagged for a closer look

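For 4 probes every Y136F array lay above the WT mean at 1 week and below it at 4 weeks. The change of the Y136F difference from 1 to 4 weeks was -6.52 on the log2 scale for Trim12a probe 1 (0.47 at 1 week, -6.05 at 4 weeks) and -2.15 for Trim12a probe 2 (0.72 and -1.42). It was -1.17 for Trim12c (0.44 and -0.73) and -1.03 for Trim30d (0.77 and -0.26). These differences between the times were not tested, since the 4-week Y136F arrays drew notice to Trim12a. The WT mice were mostly labelled female at 1 week and male at 4 weeks, and the Y136F mice female at both.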

How the results depend on the processing

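In 6 of the 7 tested comparisons of the TRIM probes at most 2 of 33 or 34 settings gave any call, and LAT KO against WT over both times had calls in 9 of 33. That count was 0 as reported, 2 with normexp and with quantile normalization, 1 with the series matrix, 1 with a replicate block, 12 with array weights (0.249 to 3.79, with 11.1% of all probes called), 1 with both LAT KO arrays of contradicted sex left out, and 0 to 2 with 1 array left out (1 without LAT KO replicate 1 of 1 week, 2 without LAT KO replicate 3 of 1 week and 2 without WT replicate 1 of 4 weeks). Array weights also gave 2 calls in LAT KO against WT at 1 week (0.326% of all probes), 9 at 4 weeks (12%), 4 in Y136F against WT at 1 week (0.93%) and 2 in WT between times (2.83%), where leaving out both LAT KO arrays of contradicted sex gave 1 (Trim25 probe 1, with 0.668% of all probes). The causes were not tested. The Trim12a difference between Y136F and WT at 4 weeks was -5.41 with normexp, -5.62 in the series matrix and -6.26 to -5.73 with 1 array left out, the smallest drop without Y136F replicate 3. Trim6 probe 1 in that comparison went from -0.54 to 0.01 with sex as a term. Trim6 probes 3, 4 and 5 moved further, from -0.17, -0.65 and -0.63 to as high as 0.90, 1.34 and 1.15 over the settings. Probe 2 stayed between -0.59 and -0.22.

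Replicate numbers did not pair the mice: deviations of same-numbered arrays correlated between -0.41 and 0.56. The replicate block moved the Trim30a probe 1 adjusted p over both times from 0.0873 to 0.044 and changed no other call of a TRIM probe. Trim6 probes 4 and 5 were well above background on 15 and 12 of 18 arrays. With 3 mice a group, a probe that missed the threshold is not shown to be unaffected.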
